A study of Mus musculus with 39 samples.

Results

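Interferon-induced genes are the genes whose transcription increases when a cell detects interferon, and 43 of them were followed here through every RNA population of a study of mouse muscle stem cells. The members were taken by gene symbol from a given list of 43 names, and all 43 were present in both deposited tables, which together name 16982 genes. The larger table holds 16979 genes and 32 libraries, the one for fixation holds 13938 genes and 7 libraries, and they were normalised separately, so levels are compared only within a table. Expression was measured by RNA sequencing and is given as RPKM, reads scaled to gene length and library size.

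The in vivo groups came from Pax7CreER/+: UPRTHA/+ mice, in which Cre under control of Pax7, a gene of muscle stem cells, governs the enzyme UPRT. Cells with UPRT build the uracil analogue 4tU into new RNA, so RNA made during the labelling time can be pulled down from total hindlimb muscle RNA. Mice received 4tU every 12 h for 4 d, every 12 h for 1 d, or 6 h before harvest, which gave the 4 d, 1 d and 6 h labels, and total hindlimb muscle RNA without pull-down was the whole-muscle group. Stem cells purified from muscle gave the isolated-cell group, and 4tU added during the isolation of about 6 h gave the isolation label. Further stem cells were exposed during isolation to alpha-amanitin, which blocks transcription by RNA polymerase II, or to DMSO alone. Each of these 8 groups had 4 libraries. In the second table, cells sorted from mice perfused with 1% paraformaldehyde (fixed, 4 libraries) were compared with cells sorted without fixation (unfixed, 3 libraries), both extracted with a kit for fixed tissue. The sources used here do not give the mice's age, or the genotype of those used for fixation, and a pull-down from mice without UPRT was not analysed here. The labels do not say that replicates are separate animals, so p-values reflect only how these libraries vary, which may be technical.

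Interferons are secreted proteins that bind paired receptors on the cell surface and activate JAK kinases, which phosphorylate STAT proteins. Type I interferon assembles a complex that contains STAT2 and IRF9 and binds the interferon-stimulated response element (ISRE), whereas interferon-gamma acts mainly at the gamma-activated sequence (GAS). The induced genes detect viral nucleic acid, block viral replication, restrict intracellular pathogens, present antigen and amplify or limit the response itself, and in uninfected tissue they are transcribed at a low basal rate.

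Promoters of the members were examined because the ISRE and GAS are the DNA elements through which interferon acts. RefSeq promoter windows of the GRCm38.p6 build, from 250 bases before to 50 bases after a start site, were found for 34 of the 43 members. The ISRE core was searched as GAAA, any 2 bases and GAAA, and the GAS core as TTCNNNGAA, on both strands, and overlapping matches of either core were each counted. The ISRE core was in the windows of 18 of 34 members (52.9%), against 3.99% of all 27025 genes with a window. The GAS core was in those of 9 members (26.5%), against 9.55% of all genes. Both were found in 5 members, Eif2ak2, Bst2, Gbp7, Igtp and Irgm2 (14.7%, against 0.614% of all genes), and neither in 12 (35.3%, against 87.1%). The window under the name Gbp2b lies 72253 bases from the locus of the deposited Gbp2b row, and without that gene, a count added after seeing the data, the ISRE core was in 17 of 33 members (51.5%) and the GAS core in 9 (27.3%). The stretches of 100 bases below are shown for 7 members because they carry the different arrangements of these cores. They are written 5′ to 3′ on the gene's own strand, and capitals mark the ISRE and GAS matches. A core on the opposite strand reads TTTC, any 2 bases and TTTC for the ISRE.
Isg15: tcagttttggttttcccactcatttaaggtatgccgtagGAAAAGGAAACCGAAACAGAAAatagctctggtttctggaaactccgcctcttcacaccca
Ifit1: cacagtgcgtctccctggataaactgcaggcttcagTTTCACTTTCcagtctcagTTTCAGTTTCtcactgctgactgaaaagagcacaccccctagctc
Ifit3: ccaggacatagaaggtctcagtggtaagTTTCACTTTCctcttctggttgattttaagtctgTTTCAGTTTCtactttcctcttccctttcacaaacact
Bst2: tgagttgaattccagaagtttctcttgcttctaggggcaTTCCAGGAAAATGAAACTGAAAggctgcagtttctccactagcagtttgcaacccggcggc
Igtp: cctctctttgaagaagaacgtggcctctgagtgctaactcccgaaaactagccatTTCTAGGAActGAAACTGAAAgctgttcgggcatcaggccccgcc
Irgm2: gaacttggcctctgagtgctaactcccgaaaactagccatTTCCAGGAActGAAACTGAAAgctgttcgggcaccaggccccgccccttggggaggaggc
Irf1: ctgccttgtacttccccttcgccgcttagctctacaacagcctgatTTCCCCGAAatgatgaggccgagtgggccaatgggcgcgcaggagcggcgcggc
The Isg15 stretch (chr4:156200836-156200935, minus strand) holds 3 overlapping ISRE cores. The Ifit1 stretch (chr19:34640749-34640848, plus strand) and the Ifit3 stretch (chr19:34583345-34583444, plus strand) each hold 2 separate ISRE cores on the opposite strand. In Bst2 (chr8:71537548-71537647, minus strand) a GAS core runs into 2 overlapping ISRE cores. Igtp (chr11:58199456-58199555, plus strand) and Irgm2 (chr11:58214862-58214961, plus strand) each carry a GAS core followed closely by an ISRE core. Aligned on that match, these 2 neighbouring genes were identical at 82 of 85 bases (96.5%). Irf1 (chr11:53769878-53769977, plus strand) has a GAS core and no ISRE core in its window. A match describes the letters of the window and is not evidence of binding.

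Library depth, recovered from the values as whole reads, was 30933516 to 102619074 reads in the in vivo label and whole-muscle libraries, 2321903 to 7742378 in the isolation label, and 15307952 to 54214947 in the other groups. The 43 members took 0.0404% of the reads in the 1 d label, 0.0613% in the 6 h label, 0.0604% in whole muscle and 0.0803% in the 4 d label (group means). In these 4 groups the lowest read number of any member in any library was 57, for Zbp1. The labelled tissue was checked with 8 stem cell markers, among them Pax7, Myf5 and Calcr, whose summed level was 1376 to 1435 RPKM in isolated cells, 179 to 199 in the 6 h label and 73.1 to 76.7 in whole muscle. In the 1 d label it was 52.8 to 56.5 and in the 4 d label 49.2 to 50.7, below whole muscle, and 6 fibre markers such as Acta1 and Ckm summed to 111600 to 121500 RPKM in these 2 labels against 105200 to 110600 in whole muscle. The fibre markers summed to 59780 to 65360 RPKM in the 6 h label and to 45.9 to 208 in isolated cells. The labels call all in vivo pull-downs muscle stem cell RNA, and the markers of the 1 d and 4 d labels go against that name. The 6 h label held more stem cell marker RNA than whole muscle, but also far more fibre marker RNA than isolated cells. All in vivo pull-downs are therefore called here by their label time. Within the 4 d label, replicate 1 was the lowest library for 40 of the 43 members, and without it 43 of 43 were called higher at 4 d than at 1 d.

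The members spanned a wide range of levels within each group. The median of their 43 group means was 3.99 RPKM at 6 h, 2.05 at 1 d and 4.85 at 4 d of label, against 3.63 in whole muscle. It was 3.72 in isolated cells, 3.66 in the isolation label, 6.46 with alpha-amanitin and 5.88 with DMSO. In the separately normalised fixation table it was 3.39 in fixed and 9.25 in unfixed cells. Ifi27 had the highest mean in all 10 groups, from 36.9 ± 1.61 RPKM in isolated cells to 193 ± 30.4 in the isolation label within the larger table. Members at 10 RPKM or more numbered 3 at 1 d, 5 at 6 h, 8 in whole muscle and 12 at 4 d.

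Between the 1 d and the 4 d label, interferon-induced genes were higher almost throughout: 42 of 43 passed the test as higher in the 4 d label and 0 as lower. The test was limma on log2(RPKM + 0.5), with p-values adjusted by Benjamini-Hochberg over all 11232 genes tested and a call at an adjusted p under 0.05. At an unadjusted p under 0.05, 43 were higher and 0 lower, and limma-voom on the recovered reads also called 43 higher and 0 lower. A gene was tested if at least 3 libraries of the 2 groups had 1 RPKM or more. Ifih1, Zbp1, Adar, Eif2ak2, Oas2 and Ifi44 were under 1 RPKM in every 1 d library and met this only through the 4 d label. With no filter on low values, 42 members were called higher and 0 lower. Of all genes tested, 21% were called higher and 33.3% lower. The members' median log2 difference was 0.95, against -0.04 over all genes. All 43 members lay above 0, as did 42.5% of all genes, and 18 of the 84 genes with a log2 difference of 1 or more were members. The exception to the calls was Irgm2 (adjusted p = 0.0565), with 6.63 ± 0.499 and 7.55 ± 0.747 RPKM at 1 d and 4 d (mean ± SD, n = 4, as for all levels that follow unless stated). Over the same comparison, 8 of 12 tested immune markers were called higher and 0 lower, with S100a8 going from 23.6 to 85.6 RPKM and C1qa from 38.4 to 57.6. The summed immune markers were 422 to 470 RPKM at 1 d and 598 to 641 at 4 d, 1 of 13 being absent from the table and none at 0 in every library. The 2 globin markers in the table, of 4 listed, summed to 517 to 558 RPKM at 1 d and 1711 to 1976 at 4 d, and both were called higher. The part of these markers in the result was not tested, and in bulk RNA fewer cells of a type and less RNA per cell cannot be told apart.

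**Figure D1:**
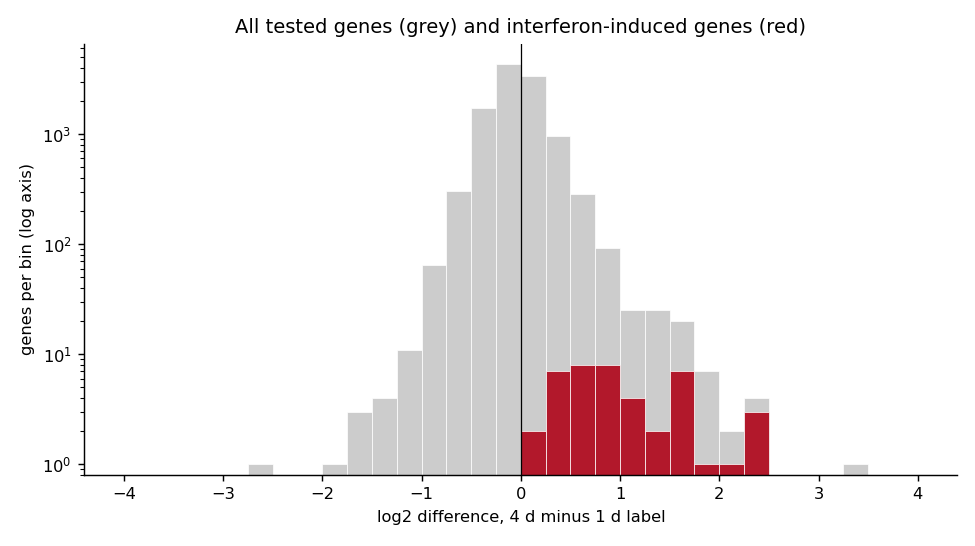
Log2 difference between the 4 d and 1 d labels (horizontal axis, bins of 0.25) for all 11232 genes tested (grey) and the 43 interferon-induced genes (red), with the number of genes on a log vertical axis. All 43 members lie above 0, and 18 of the 84 genes at 1 or more are members.

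The level at 1 d was the low point for most members. Between the 6 h and the 1 d label, 31 of 40 tested members were lower at 1 d and 6 were higher, where 50% of all 11822 genes tested were called lower and 36.2% higher, and the members' median was -0.57 against -0.13 over all genes. Of the 43 members, 33 had the lowest mean of the 3 label times at 1 d, 10 at 6 h and 0 at 4 d. The highest mean was at 4 d for 32 and at 6 h for 11. These orders of means were not counted over all genes, so they describe the members only. In 32 members every 1 d library lay below every 6 h and every 4 d library, a pattern that 6.96% of 11355 genes showed. Those 11355 genes had 1 RPKM or more in 3 of these libraries, which the 6 h or 4 d libraries alone could meet. Among the 32, Ifih1, Adar, Eif2ak2 and Oas2 were under 1 RPKM in every 1 d library. Of these, Adar, Eif2ak2 and Oas2 were tested between 1 d and 6 h only through the 6 h label. With no filter on low values, 32 members were lower at 1 d than at 6 h and 6 higher. Between 6 h and 1 d, 8 of 12 tested immune markers were called lower and 2 higher, and 5 of 6 tested stem cell markers were lower. All 6 fibre markers were called higher at 1 d. The part of these markers in the result was not tested. Compared with the 6 h label directly, 30 of 43 members were higher in the 4 d label and 6 lower, against 36.1% and 52.7% of 11975 genes, with medians of 0.56 and -0.18. Zbp1 and Ifi44 were under 1 RPKM in every 6 h library and were tested there only through the 4 d label. With no filter the split was also 30 higher and 6 lower, and with library sizes from all reads it was 25 higher and 11 lower. These 3 comparisons share label groups, so their values are given side by side and are not independent of each other.

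**Figure D2:**
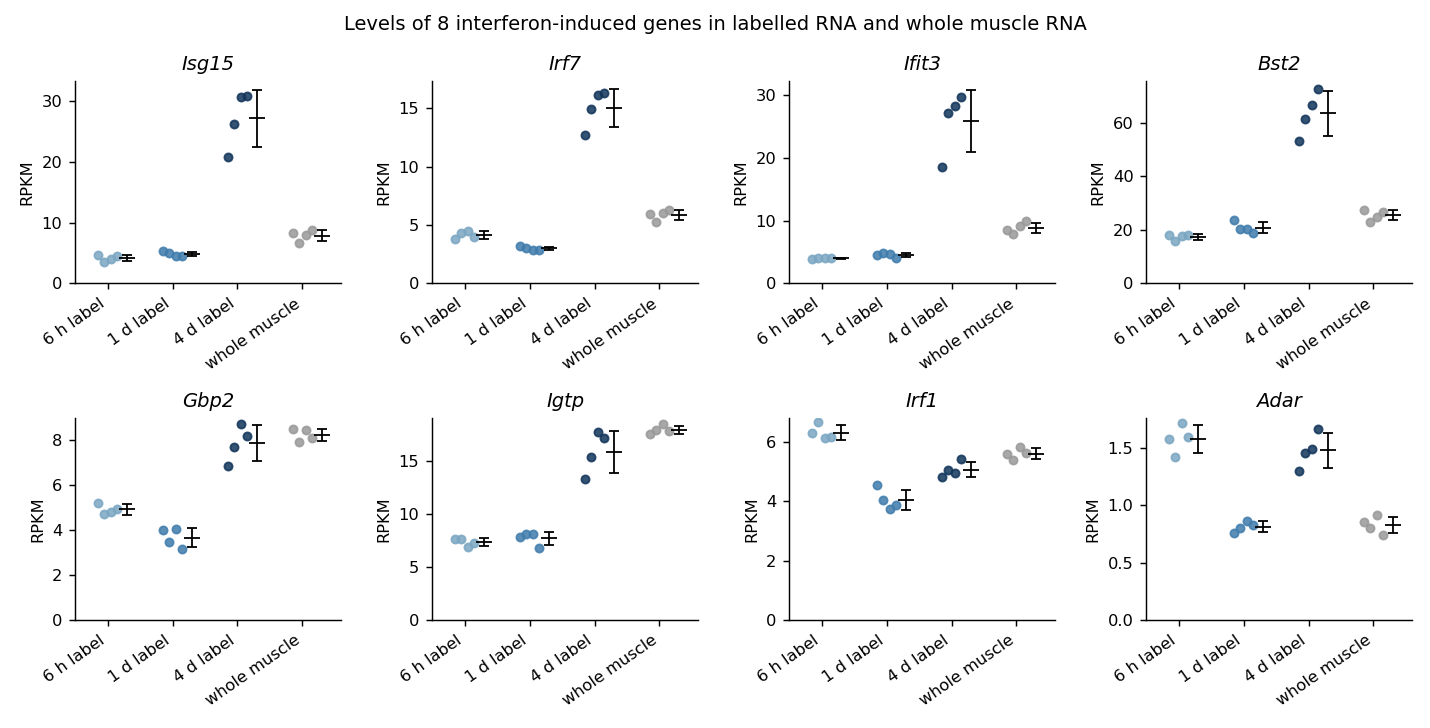
Levels in RPKM of 8 interferon-induced genes in the 6 h, 1 d and 4 d labels and whole muscle, with a point for each library and bars for the mean and SD of 4 libraries. Isg15, Irf7, Ifit3 and Bst2 stand highest in the 4 d label, with Isg15 at 20.9 to 30.8 RPKM there and at 3.50 to 8.71 in the other 3 groups.

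The transcriptional regulators were all called higher at 4 d than at 1 d, and all 4 were lower at 1 d than at 6 h. The shares of all genes tested were 21% and 50%. Irf7, the interferon-induced factor that amplifies type I interferon production, had 3.8, 4.28, 4.5 and 3.99 RPKM in the 6 h libraries and 3.16, 3.04, 2.89 and 2.88 in the 1 d libraries. It reached 12.7, 14.9, 16.1 and 16.3 in the 4 d libraries, against 5.91, 5.23, 6 and 6.29 in whole muscle. No 4 d library overlapped another of these groups, and the log2 difference between 4 d and 1 d was 2.14 ± 0.069 (4.42-fold on the log2(RPKM + 0.5) scale, ± SE; adjusted p = 9.13e-10). Stat2, the STAT of the ISRE-binding complex, stood at 3.63, 4.19, 4.28 and 3.86 RPKM at 6 h, 2.33, 2.09, 1.92 and 1.99 at 1 d and 4.06, 4.68, 4.74 and 4.68 at 4 d. Its whole-muscle libraries held 2.46, 2.19, 2.28 and 2.17 RPKM and overlapped the 1 d libraries. The DNA-binding partner of that complex, Irf9, fell from 4.51, 4.68, 4.78 and 4.75 RPKM at 6 h to 2.53, 2.52, 2.43 and 2.29 at 1 d. At 4 d it was at 4.23, 4.58, 4.35 and 4.88, overlapping the 6 h libraries and above the whole-muscle values of 3.72, 3.59, 3.75 and 3.83, and the 4 d and 6 h labels did not pass the test for a difference (adjusted p = 0.343). Irf1, a factor induced by interferon-gamma and by other stress signals, showed the smallest change of the 4 regulators between 1 d and 4 d. Its libraries read 6.28, 6.66, 6.11 and 6.16 RPKM at 6 h, 4.53, 4.03, 3.73 and 3.87 at 1 d, 4.82, 5.05, 4.95 and 5.4 at 4 d and 5.59, 5.38, 5.81 and 5.62 in whole muscle. The 4 d label was above 1 d by 0.29 ± 0.059 (adjusted p = 0.0012) and below 6 h, with a log2 difference of -0.29 ± 0.046 (adjusted p = 6.86e-05).

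Among the 7 genes of ubiquitin-like and ADP-ribosyl modification, all were higher at 4 d than at 1 d, against 21% of all genes tested. At 1 d, 6 were lower than at 6 h, against 50% of all genes tested. Isg15 encodes the ubiquitin-like protein that is conjugated to other proteins after interferon, and its gene lies on chr4:156199424-156200818 (mm10, minus strand). Its 6 h libraries held 4.71, 3.5, 4.01 and 4.48 RPKM and its 1 d libraries 5.27, 4.97, 4.58 and 4.54. The 4 d libraries held 20.9, 26.2, 30.7 and 30.8 RPKM against 8.24, 6.59, 7.94 and 8.71 in whole muscle. The 4 d level was 5.13-fold that of 1 d (log2 difference 2.36 ± 0.10, adjusted p = 1.14e-08), with no overlap with any of the other 3 groups. Between 1 d and 6 h the Isg15 libraries overlapped, with a log2 difference of 0.20 ± 0.078 (adjusted p = 0.0311). That call was lost with limma-voom, with library sizes from all reads, with all groups in 1 fit, and without 6 h replicate 2 or 3 or 1 d replicate 1 or 2. Usp18, the protease that removes ISG15 and damps receptor signalling, read 7.47, 7.76, 6.74 and 7.2 RPKM at 6 h and 5.34, 4.83, 4.48 and 4.54 at 1 d. It read 10.9, 14.5, 15.7 and 15 at 4 d and 8.01, 8.41, 8.53 and 8.99 in whole muscle, so that the 4 d libraries were the highest and the 1 d libraries the lowest of the 4 groups. Trim30a, a TRIM family protein, fell from 4.46, 4.14, 4.24 and 4.35 RPKM at 6 h to 1.48, 1.46, 1.56 and 1.36 at 1 d, below the whole-muscle values of 1.71, 1.91, 1.87 and 1.93. At 4 d it was at 3.07, 3.84, 4.45 and 3.79, overlapping the 6 h label. Trim25, the ubiquitin ligase that activates the RNA sensor RIG-I, had the largest fall of any member between 6 h and 1 d, from 8.9, 10.8, 10.8 and 10.4 to 3.12, 3.46, 3.08 and 3.3 RPKM (log2 difference -1.52 ± 0.063, 2.86-fold lower, adjusted p = 1.05e-10). At 4 d it read only 3.77, 3.72, 3.82 and 4.16, which still exceeded 1 d (adjusted p = 0.00321) and whole muscle, at 2.4, 2.25, 2.6 and 2.38. Dtx3l, Parp9 and Parp14, partners in ADP-ribosylation, were higher at 4 d than at 1 d by 0.38 to 0.73 on the log2 scale. The ends of Dtx3l and Parp9 overlap on opposite strands, and the sources used here do not say whether counting used strand, so reads of the overlap may be shared between them.

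All 8 genes that detect or process foreign nucleic acid were called higher at 4 d than at 1 d, against 21% of all genes tested. Of these 8, Ifih1, Zbp1, Adar, Eif2ak2 and Oas2 passed the filter on low values only through the 4 d libraries. Ddx58, which encodes RIG-I, read 1.69, 1.71, 1.64 and 1.69 RPKM at 6 h, 1.32, 1.29, 1.44 and 1.24 at 1 d, 2.01, 2.03, 2.1 and 2.38 at 4 d and 1.34, 1.4, 1.31 and 1.28 in whole muscle. Every 4 d library was above all others, and the 1 d and whole-muscle libraries overlapped. Ifih1, which encodes the sensor of long double-stranded RNA MDA5, was low, at 0.989, 1.08, 1.09 and 0.978 RPKM at 6 h, 0.55, 0.6, 0.545 and 0.67 at 1 d, 1.04, 1.04, 1.07 and 1.01 at 4 d and 0.684, 0.623, 0.657 and 0.661 in whole muscle. It was tested between 4 d and 1 d, where it was higher by 0.50 ± 0.064 (adjusted p = 3.9e-05), but between 1 d and 6 h it did not pass the filter on low values. Eif2ak2, which encodes the double-stranded RNA kinase PKR, stood at 1.82, 1.9, 2.02 and 1.93 RPKM at 6 h and 0.662, 0.694, 0.844 and 0.789 at 1 d. Its 4 d libraries held 1.29, 1.45, 1.4 and 1.78, between those groups and lower than 6 h (log2 difference -0.29 ± 0.073, adjusted p = 0.00223), and overlapped the whole-muscle values of 1.34, 1.15, 1.43 and 1.34. The RNA-editing enzyme gene Adar had 1.57, 1.42, 1.71 and 1.59 RPKM at 6 h, 0.759, 0.801, 0.864 and 0.8293 at 1 d, 1.3, 1.45, 1.49 and 1.66 at 4 d and 0.851, 0.797, 0.913 and 0.743 in whole muscle. Its 6 h and 4 d libraries overlapped, as did its 1 d and whole-muscle libraries. Oasl2, of the oligoadenylate synthetase-like family, rose from 1.18, 1.23, 1.12 and 1.28 RPKM at 1 d to 3.76, 4.8, 5.04 and 5.79 at 4 d (3.11-fold, adjusted p = 8.31e-08). It had 2.11, 1.87, 2.26 and 2.34 at 6 h and 2.96, 2.69, 3.05 and 3.03 in whole muscle, so the 4 d libraries were highest and the 1 d libraries lowest. Zbp1, a sensor of Z-form nucleic acid, had the next largest difference of the 8 between 4 d and 1 d, at 0.616 ± 0.105 and 2.87 ± 0.458 RPKM (log2 difference 1.59 ± 0.10). Dhx58, which encodes the RIG-I-like regulator LGP2, had 0.998 ± 0.084, 1.11 ± 0.0363 and 2.3 ± 0.207 RPKM at 6 h, 1 d and 4 d, and 0.884 ± 0.0785 in whole muscle. Oas2, which makes the second messenger that activates RNase L, had 1.13 ± 0.171, 0.492 ± 0.0262 and 1.36 ± 0.116 RPKM, and 0.469 ± 0.0396 in whole muscle, near the floor of what was tested.

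The 15 antiviral effectors were all called higher at 4 d than at 1 d, against 21% of all genes tested. Of 14 tested between 1 d and 6 h, 10 were lower and 4 higher at 1 d, against 50% and 36.2% of all genes tested. Over all members, the 6 called higher at 1 d than at 6 h became 4 with limma-voom or without 1 d replicate 2, 2 with library sizes from all reads and 1 with all groups in 1 fit. Ifit1, which binds viral RNA with a foreign 5′ end, read 2.63, 3.28, 2.62 and 2.62 RPKM at 6 h and 1.49, 1.28, 1.74 and 1.76 at 1 d. Its 4 d libraries held 7.43, 9.48, 10.8 and 10.6 against 5.03, 4.56, 5.01 and 5.21 in whole muscle, a difference of 2.28 ± 0.11 from 1 d (4.85-fold, adjusted p = 2.35e-08). The 4 groups of Ifit1 did not overlap, with 1 d lowest and 4 d highest. Ifit2 had the same order of means at a lower level, with 2.04, 1.99, 2.1 and 1.64 RPKM at 6 h, 0.877, 0.755, 1.14 and 0.79 at 1 d, 2.7, 4.13, 4.01 and 3.86 at 4 d and 2.16, 2.13, 2.26 and 1.98 in whole muscle, where the 6 h and whole-muscle libraries overlapped. Ifit3 (chr19:34583531-34588731, mm10, plus strand) differed from both in having its lowest level at 6 h, at 3.83, 4.04, 3.97 and 4.09 RPKM, with 4.5, 4.86, 4.61 and 4.1 at 1 d. At 4 d it reached 18.6, 27.1, 28.3 and 29.7, above the whole-muscle values of 8.47, 7.9, 9.1 and 9.91. Its log2 difference of 2.38 ± 0.12 between 4 d and 1 d was the largest of the 43 members (5.2-fold, adjusted p = 2.74e-08), and reads shared with its near copy Ifit3b make its level uncertain. Rsad2, which encodes viperin, an enzyme that makes a chain-terminating nucleotide, fell from 4.27, 4.04, 3.83 and 4 RPKM at 6 h to 1.74, 1.95, 1.91 and 1.77 at 1 d. The 4 d libraries stood at 6.12, 6.91, 7.12 and 7.46 and whole muscle at 3.36, 3.65, 3.76 and 3.73, and the 4 d libraries were the highest. Bst2, which encodes tetherin, a membrane protein that holds budding virus on the cell, lies on chr8:71534264-71537437 (mm10, minus strand). It read 17.9, 15.9, 17.6 and 17.9 RPKM at 6 h, 23.6, 20.2, 20.2 and 18.8 at 1 d and 27.3, 23, 24.8 and 26.5 in whole muscle. The 4 d libraries held 53.1, 61.3, 66.6 and 72.7 RPKM, 3.01-fold the 1 d level (log2 difference 1.59 ± 0.089, adjusted p = 6.78e-08) and above every library of the other 3 groups.

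The effectors also held 3 of the 11 members with their highest label mean at 6 h, Ifi35, Slfn2 and Slfn5. Slfn5, of the Schlafen family, read 5.28, 6.83, 6.84 and 6.1 RPKM at 6 h and 1.64, 2.02, 2.12 and 1.85 at 1 d, a fall of 2.81-fold (log2 difference -1.49 ± 0.084, adjusted p = 1.65e-09). At 4 d it had 2.39, 2.94, 3.08 and 3.08, which was above 1 d and below 6 h. Slfn2, which keeps T cells quiescent, showed the same order, with 18.8, 19.4, 18.4 and 19.5 at 6 h, 7.92, 6.97, 6.68 and 6.95 at 1 d and 14.2, 15.7, 15.5 and 15.6 at 4 d. The opposite order between 6 h and 1 d was seen in Ifi27, the member with the highest level in all 10 groups. Its libraries held 58.7, 54.2, 58.5 and 58.9 RPKM at 6 h, 93.1, 78.9, 78.7 and 80.2 at 1 d and 109.6, 102, 108 and 107 at 4 d, and the log2 difference between 1 d and 6 h was 0.52 ± 0.056 (adjusted p = 1.2e-06). Lgals3bp, a secreted glycoprotein that binds galectin, likewise rose between 6 h and 1 d, from 6.65 ± 0.13 to 8.43 ± 0.369 RPKM, and reached 16.7 ± 1.45 at 4 d. Rtp4, a chaperone of receptors that responds to interferon, was 3.57-fold higher at 4 d than at 1 d, at 21.4 ± 2.78 against 5.6 ± 0.327 RPKM. Cmpk2, a nucleotide kinase gene next to Rsad2, had 3.62 ± 0.0947, 2.05 ± 0.0972 and 5.65 ± 0.991 RPKM at 6 h, 1 d and 4 d, the same order as Rsad2. Xaf1, which favours apoptosis, had 1.88 ± 0.093, 1.1 ± 0.169 and 3.14 ± 0.421. Sp100, a protein of nuclear bodies, had 3.37 ± 0.0549, 2.25 ± 0.171 and 3.68 ± 0.293, and was highest in whole muscle, at 5.19 ± 0.109. Ifi44 was the lowest effector, at 0.55 ± 0.0723, 0.611 ± 0.0246 and 1.68 ± 0.239 RPKM.

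The interferon-induced GTPases, which act against pathogens inside vacuoles, were called higher at 4 d than at 1 d in 7 of 8 cases. Of all genes tested, 21% were called higher. Iigp1, an immunity-related GTPase, read 7.81, 7.88, 7.25 and 6.9 RPKM at 6 h and 4.34, 4.43, 3.79 and 3.83 at 1 d. It was at 12.4, 15.6, 16.3 and 15.1 in the 4 d libraries and 10.6, 9.8, 11.1 and 11.8 in whole muscle, 3.33-fold above 1 d (adjusted p = 1.6e-08), and the 4 groups did not overlap. Igtp, a regulator of that family, stood at 7.65, 7.66, 6.88 and 7.26 RPKM at 6 h and 7.85, 8.17, 8.09 and 6.79 at 1 d, groups that overlapped. It had 13.3, 15.4, 17.7 and 17.1 at 4 d and 17.6, 17.9, 18.5 and 17.9 in whole muscle, with a log2 difference of -0.18 ± 0.072 between them (adjusted p = 0.0344). The call was lost without 4 d replicate 1 or 2, without whole-muscle replicate 2, 3 or 4, with median-of-ratios factors and with all groups in 1 fit, and the difference was 0.013 with library sizes from all reads. The Igtp gene (chr11:58199556-58207591, mm10, plus strand) overlaps the annotated Irgm2 locus on the same strand, so reads may be shared between these 2 genes and their levels are uncertain. Irgm1, which controls where the other GTPases act, differed less, with 5.64, 6.14, 5.67 and 5.41 RPKM at 6 h, 4.99, 4.62, 4.5 and 4.83 at 1 d, 5.88, 6.51, 6.74 and 6.58 at 4 d and 8.78, 8.62, 8.69 and 8.74 in whole muscle. Whole muscle was the highest of the 4 groups for Irgm1 and 1 d the lowest. Gbp2, a guanylate-binding protein gene, read 5.23, 4.7, 4.8 and 4.96 RPKM at 6 h, 4.01, 3.46, 4.04 and 3.15 at 1 d, 6.86, 7.68, 8.72 and 8.21 at 4 d and 8.5, 7.93, 8.45 and 8.08 in whole muscle, and its 4 d and whole-muscle libraries overlapped. Gbp7 showed the same low point, with 5.43, 5.78, 5.73 and 5.35 at 6 h, 3.79, 4.17, 4.2 and 3.94 at 1 d, 5.82, 6.43, 6.5 and 6.19 at 4 d and 5.73, 5.54, 5.82 and 5.53 in whole muscle. Gbp3 had 3.06 ± 0.276, 2.03 ± 0.185 and 6.71 ± 0.925 RPKM at 6 h, 1 d and 4 d, and Gbp2b 1.07 ± 0.0306, 1.09 ± 0.201 and 2.14 ± 0.269. Gbp paralogs are alike in sequence, and reads could be split between them. Tap1, which moves peptides into the endoplasmic reticulum for antigen presentation, fell from 2.74, 2.57, 2.83 and 2.72 RPKM at 6 h to 1.79, 1.71, 1.64 and 1.55 at 1 d. At 4 d it held 3.11, 3.38, 3.44 and 3.51, the highest of the 4 groups, with 2.69, 2.23, 2.37 and 2.29 in whole muscle.

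**Figure D3:**
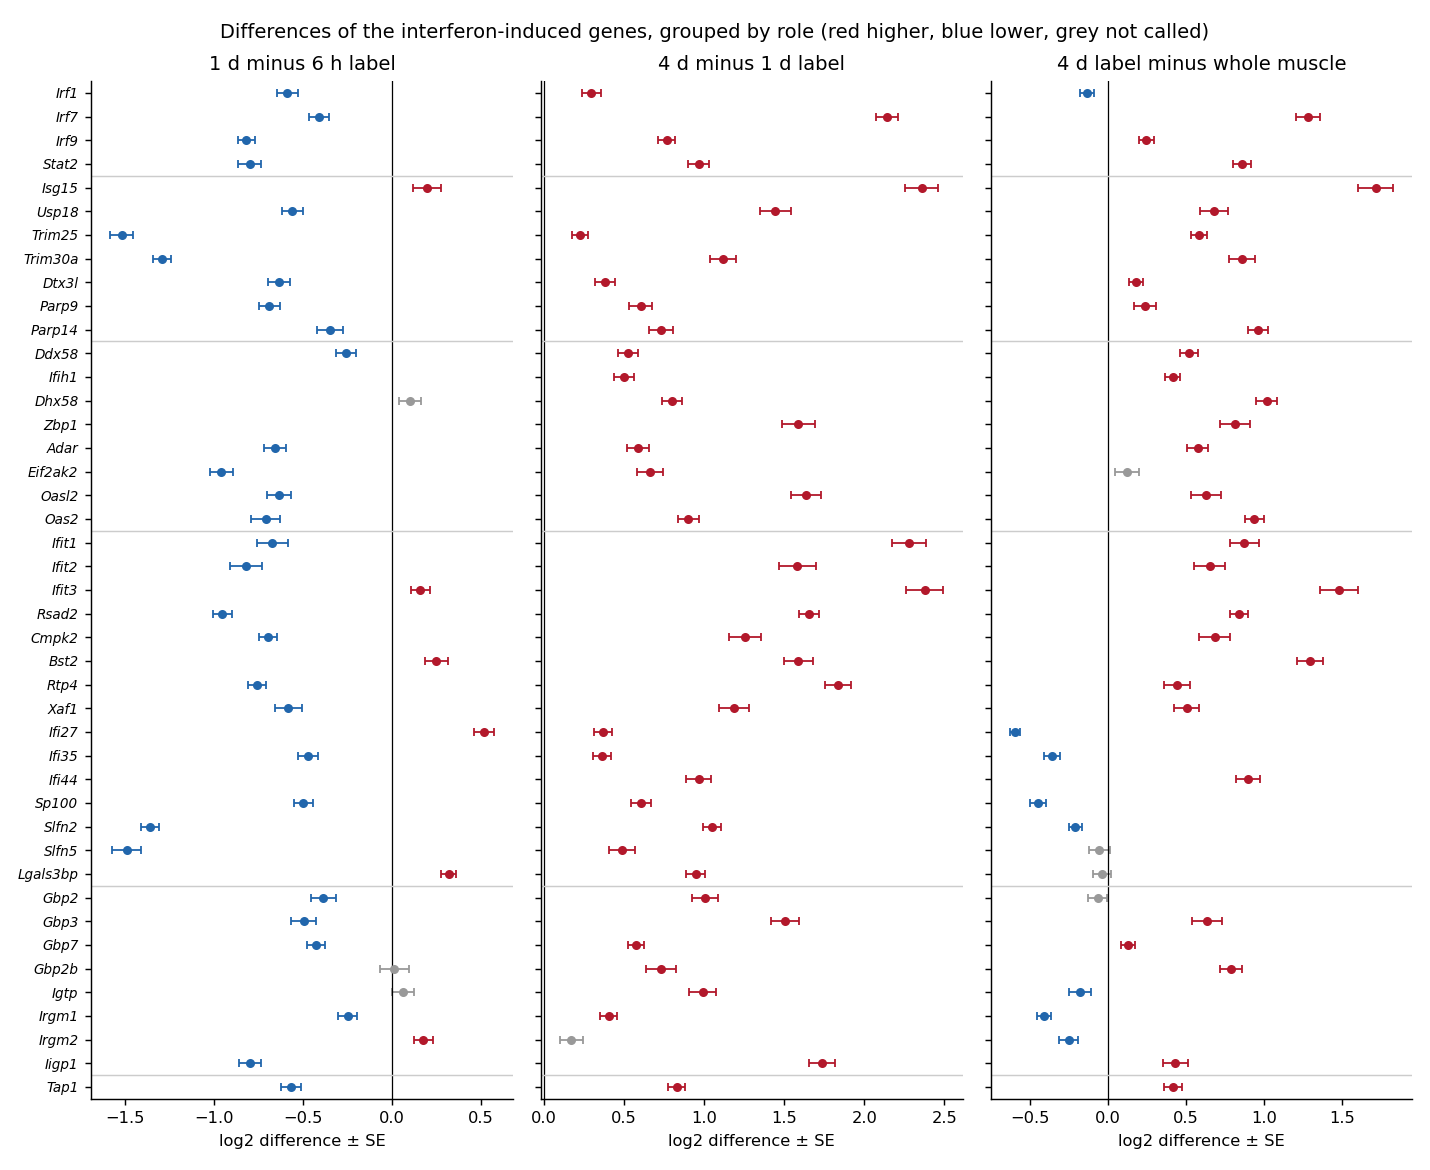
Log2 difference on the log2(RPKM + 0.5) scale (horizontal axis, points with SE bars) for each of the 43 members between 1 d and 6 h, 4 d and 1 d, and 4 d and whole muscle. Red points were called higher, blue lower and grey not called. At 1 d, 31 of 40 are lower than at 6 h (50% of all genes tested), and 42 of 43 are higher at 4 d than at 1 d (21%).

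Against whole muscle, the 3 labels stood differently. In the 4 d label 31 of 43 members were higher than whole muscle and 8 lower, where 28.1% of 11347 genes were called higher and 56.4% lower, and the medians were 0.52 for members and -0.21 for all genes. The 4 largest differences were in Isg15 (3.28-fold), Ifit3 (2.8-fold), Bst2 (2.46-fold) and Irf7 (2.43-fold). The 8 called lower were Irf1, Ifi27, Ifi35, Sp100, Slfn2, Igtp, Irgm1 and Irgm2, with Ifi27 at 107 ± 3.3 against 161 ± 4.18 RPKM. All 7 modifier genes and 7 of 8 sensing genes were higher, while 3 of 8 GTPases were lower and 4 higher. Parp14, Dhx58, Ifih1, Adar, Oas2 and Ifi44 were under 1 RPKM in every whole-muscle library. They met the filter on low values only through the 4 d label. With no filter, 31 members were higher and 8 lower. In the 1 d label 33 of 38 tested members were lower than whole muscle and 2 higher, against 54.7% and 28.2% of 11158 genes. In the 6 h label 19 of 40 were lower and 17 higher, against 44.4% and 45.6% of 11746 genes. Zbp1 was under 1 RPKM in every 1 d and 6 h library and Eif2ak2 in every 1 d library. There they met the filter only through whole muscle. Parp14, Adar and Oas2 met it only through the 6 h label in that comparison. With no filter, 33 members were lower and 3 higher at 1 d, and 20 lower and 18 higher at 6 h. The 6 h split depended on the scaling: 11 were higher and 23 lower with median-of-ratios factors, and 19 higher and 13 lower with library sizes from all reads, as the median of all genes moved from 0.02 to -0.19 and 0.31. In 22 members every 4 d library was above every 6 h, 1 d and whole-muscle library, which 4.57% of 11420 genes showed. Those 11420 genes had 1 RPKM or more in 3 of these libraries, which the 4 d libraries alone could meet. Among the 22, Ifi44 was under 1 RPKM in every 6 h, 1 d and whole-muscle library. These comparisons use the same 4 whole-muscle libraries. Summed immune markers were 818 to 902 RPKM in whole muscle, above the 4 d label, and their part in the result was not tested.

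Other genes of the interferon pathway were counted in the same comparison of 4 d with 1 d. In that comparison 21% of all genes tested were called higher and 33.3% lower. Of 8 tested receptor and kinase genes, 4 were lower at 4 d and 0 higher, the lower ones being the receptor chains Ifnar1 and Ifngr1 and the kinases Jak1 and Jak2, with log2 differences between -0.21 and -0.40. Of 5 tested genes of the sensing pathway upstream of interferon, 3 were lower, namely Mavs, Tbk1 and Myd88, and 0 higher. Of 7 negative regulators, Socs1 was higher and 3 were lower. Of the interferon ligand genes, 1 of 10 listed was in the table, Ifnb1, and it was not tested in this comparison. A further list of 77 interferon-induced genes that are not members had 67 in the table, and of 56 tested, 47 were higher at 4 d and 3 lower. Among these were Ifi27l2a, which went from 211 to 537 RPKM, the GTPase gene Ifi47, from 2.82 to 9.15, and the oligoadenylate synthetase gene Oas1a, from 1.36 to 4.72.

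Members with an ISRE core in the promoter window had a median log2 difference of 0.98 between 4 d and 1 d (17 of 18 called higher; 0.99 and 16 of 17 without Gbp2b), those with a GAS core 0.59 (8 of 9) and those with neither 0.96 (12 of 12). Over all genes tested, 21% were called higher. Ifit1 and Isg15, whose windows hold 2 and 3 ISRE cores, were among the largest differences. The same held for Irf7, whose window holds neither core. Ifit3, Bst2, Gbp3 and Irgm1 also have a window with 2 ISRE cores. Of these, Irgm1 differed less, at 4.5 to 4.99 RPKM at 1 d and 5.88 to 6.74 at 4 d. Whether the number of cores goes with the size of the difference was not tested.

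**Figure D4:**
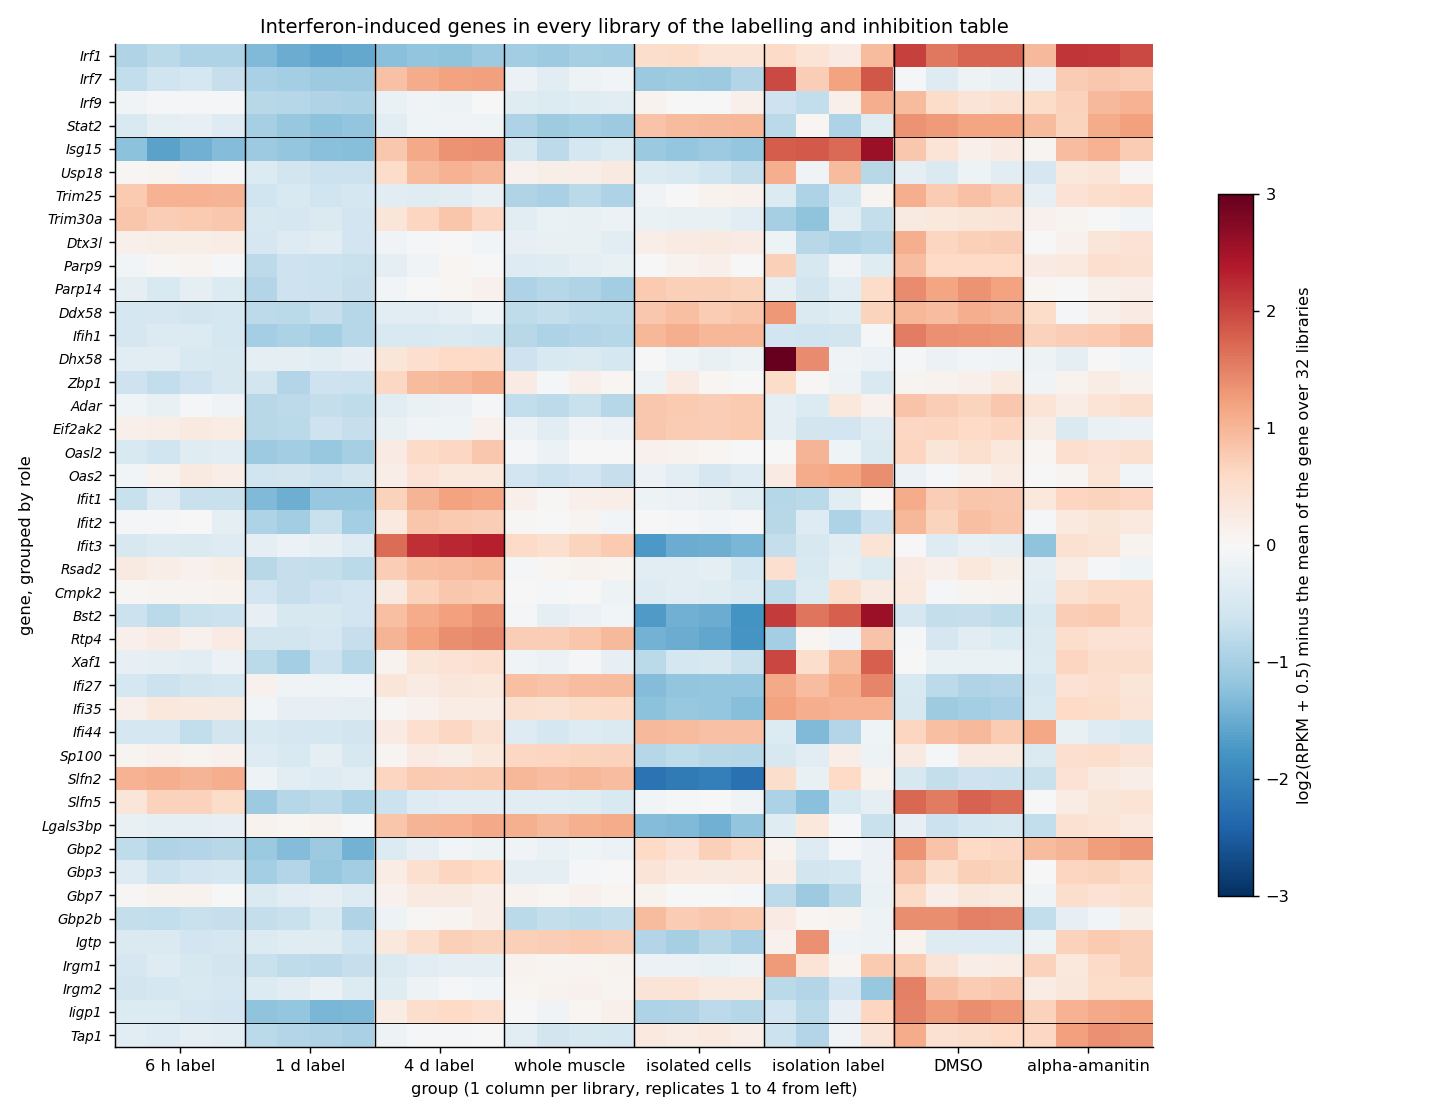
Level of each of the 43 members (rows) in the 32 libraries of the larger table (columns, ordered by group), as log2(RPKM + 0.5) minus the gene's mean over these libraries, with colours limited at 3 either way. The 1 d columns are low for most members, and the isolated-cell columns split the members into high and low.

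Isolated stem cells differed from whole muscle in both directions. Of 42 tested members, 20 were higher in isolated cells and 18 lower, against 48.8% and 46.5% of 14813 genes, so the share called was near that of all genes. By role, 6 of 7 tested sensing genes were higher and 0 lower, and 12 of 15 effectors were lower and 2 higher. Ifih1, Dhx58, Adar, Parp14 and Ifi44 were under 1 RPKM in every whole-muscle library. They met the filter on low values only through the isolated cells. With no filter, 21 members were higher and 18 lower. Stat2 had 9.77, 10.4, 10.5 and 10.7 RPKM in isolated cells and 2.46, 2.19, 2.28 and 2.17 in whole muscle (3.91-fold higher, adjusted p = 1.56e-12). Ifih1, Parp14 and Ddx58 were also higher, by 3.73-, 3.15- and 3.05-fold. Slfn2 showed the largest fall, with 1.51, 1.65, 1.74 and 1.47 RPKM against 18.2, 17.2, 18.2 and 17.3 (8.73-fold lower, adjusted p = 3.1e-14). Rtp4, Lgals3bp and Ifit3 were lower by 5.23-, 5.14- and 4.4-fold. The direction of many of these calls depended on the scaling: with library sizes from all reads, 34 members were higher and 8 lower, as the median of all genes moved from 0.06 to 1.59. Isg15, for example, had 5.1, 4.97, 5.22 and 4.91 RPKM in isolated cells, below whole muscle by the deposited scaling (log2 difference -0.59 ± 0.071) and above it, at 0.92, with library sizes from all reads. Summed immune markers were 29.2 to 31.6 RPKM in isolated cells against 818 to 902 in whole muscle, and their part in the result was not tested.

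RNA labelled during isolation differed from the total RNA of the isolated cells in both directions. Of 43 members, 14 were higher and 15 lower in the isolation label, against 29.8% and 29.7% of 14863 genes. The share called was thus near that of all genes. By role, 9 of the 15 effectors were higher and 3 lower, and 2 of 8 GTPases were higher and 5 lower. Bst2 had 123, 86.4, 99.6 and 170.4 RPKM in the isolation label and 8.3, 10.1, 9.72 and 7.84 in isolated cells (12.3-fold higher, adjusted p = 7.31e-07). Isg15 had 42.1, 43.1, 38.9 and 72.8 against 5.1, 4.97, 5.22 and 4.91 (8.67-fold, adjusted p = 1.33e-06), and Irf7 had 27.9, 11.6, 16.1 and 25.9 against 2.84, 2.95, 2.87 and 3.38 (5.61-fold, adjusted p = 4.19e-05). In these 3 genes no isolation-label library overlapped the isolated cells. Slfn2 was higher by 5.34-fold. Stat2 and Ifih1, which had been high in isolated cells, were lower in the label, with Stat2 at 2.73, 5.38, 2.46 and 3.92 RPKM and Ifih1 at 0.913, 0.903, 0.947 and 1.57 against 3.75, 4.02, 3.76 and 3.71 in isolated cells. Eif2ak2 fell by 2.33-fold and Ifi44 by 3.04-fold, the latter counted with as few as 2 reads in a library. Ifi44 was under 1 RPKM in every isolation-label library and Oas2 in every isolated-cell library, so each met the filter through the other group only. With no filter, 14 members were higher and 14 lower. With library sizes from all reads, 10 members were higher and 21 lower. The isolation-label libraries were the shallowest of the study, and their summed immune markers were 406 to 532 RPKM and fibre markers 7385 to 29700, against 29.2 to 31.6 and 45.9 to 208 in isolated cells. The part of depth and of these markers in the result was not tested.

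Cells isolated with alpha-amanitin differed from cells isolated with DMSO in 17 members. Of 43 members, 11 were lower and 6 higher, against 10.3% and 33.9% of 13710 genes, with medians of -0.03 for members and 0.28 for all genes. Gbp2b showed the largest fall, from 6.21, 6.27, 6.78 and 6.64 RPKM with DMSO to 1.02, 1.65, 1.92 and 2.39 with alpha-amanitin (log2 difference -1.67 ± 0.19, adjusted p = 0.000531). Slfn5 fell from 14.3, 12.8, 14.9 and 13.9 to 4.03, 4.78, 5.32 and 5.54 RPKM (adjusted p = 0.000295) and Parp14 from 5.73, 4.78, 5.41 and 4.89 to 1.93, 1.84, 2.07 and 2.15 (adjusted p = 0.000282). Ddx58 had 5.79, 5.43, 6.18 and 5.85 with DMSO and 4.1, 2.59, 3.01 and 3.2 with alpha-amanitin, and these 4 genes did not overlap between the groups. Among sensing genes 4 of 8 were lower, Ddx58, Ifih1, Adar and Eif2ak2, and 0 higher. The genes called higher were Bst2, Ifi35, Ifi27, Igtp, Irf7 and Slfn2, and of these Bst2 and Ifi35 did not overlap. Bst2 had 20.3, 47.3, 48.8 and 42.2 RPKM with alpha-amanitin and 19.8, 16.9, 17.3 and 16.5 with DMSO (log2 difference 1.07 ± 0.27, adjusted p = 0.0137). Isg15 was not called, at 12.4, 22.8, 24.6 and 20.1 against 20.7, 15.8, 13 and 14 RPKM (adjusted p = 0.3). Replicate 1 stood apart in both groups, as the lowest alpha-amanitin library for 33 members and the highest DMSO library for 32. Without alpha-amanitin replicate 1, 15 members were higher and 13 lower, and without replicate 2 of that group 1 was higher and 7 lower. The split was 2 higher and 8 lower when DMSO replicate 2, 3 or 4 was left out, and likewise for replicate 3 or 4 of the treated group. The split also moved with the scaling, to 6 higher and 18 lower with median-of-ratios factors and to 4 and 24 with library sizes from all reads. Summed immune markers were 80.9 to 231 RPKM with alpha-amanitin and 69.1 to 85.7 with DMSO, fibre markers 2181 to 11080 and 31.1 to 71.1, and their part in the result was not tested.

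Stem cells fixed in the animal before isolation held lower levels of many members than cells isolated without fixation. Of 43 members, 21 were called lower and 0 higher, against 10.8% and 12.2% of 12816 genes, with medians of -1.22 for members and 0.07 for all genes. All 4 regulators and 7 of 8 GTPases were lower, but 1 of 7 modifier genes and 1 of 8 sensing genes. At an unadjusted p under 0.05, 26 were lower and 1, Ifi27, higher, and limma-voom called 21 lower and 0 higher. Iigp1 read 1.82, 1.17, 0.34 and 0.78 RPKM in fixed and 16.3, 61.7 and 24.7 in unfixed cells (20.8-fold lower, log2 difference -4.38 ± 0.49, adjusted p = 0.000383). Slfn5 read 0.769, 0.423, 1.26 and 1.08 against 7.04, 21.4 and 13.8 (9.9-fold lower, adjusted p = 0.000596). Irf1 read 5.73, 5.66, 8.55 and 5.94 against 32.7, 119 and 75.6 (9.76-fold lower, adjusted p = 0.000485). Gbp2 read 4.96, 3.19, 3.52 and 3.13 against 32.6, 33.5 and 30.3 (7.89-fold lower, adjusted p = 7.06e-05), and it had the narrowest spread of these 4 genes in the unfixed cells. In all 4 the fixed and unfixed libraries did not overlap. Isg15 was lower too, at 9.06, 5.48, 10.1 and 7.36 against 16.3, 43.1 and 28.2 RPKM (adjusted p = 0.00654). Ifit1 had 3.53, 2.08, 2.71 and 3.11 against 9.81, 21.1 and 14.1 (adjusted p = 0.00146). Other members showed no such gap: Trim25 had 11.2, 13.7, 15.7 and 16 against 7.26, 19.9 and 14.4 and Bst2 20.4, 31.3, 32.2 and 40.9 against 26, 50.05 and 33.8, both with overlapping libraries. Ifi27 lay the other way, at 312, 162, 108 and 153 against 79.7, 96.3 and 93.9 RPKM, without overlap and not called (adjusted p = 0.066). Among the pathway genes, Socs3, a feedback inhibitor of JAK signalling, had 414 RPKM in unfixed and 10.5 in fixed cells, and the interferon-induced chemokine gene Cxcl10 47.1 and 1.62 (group means). Most genes of the pathway lists were not called. Of 7 negative regulators, 3 were lower and 0 higher. Of 61 other interferon-induced genes tested, 17 were lower, 1 higher and 43 not called.

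**Figure D5:**
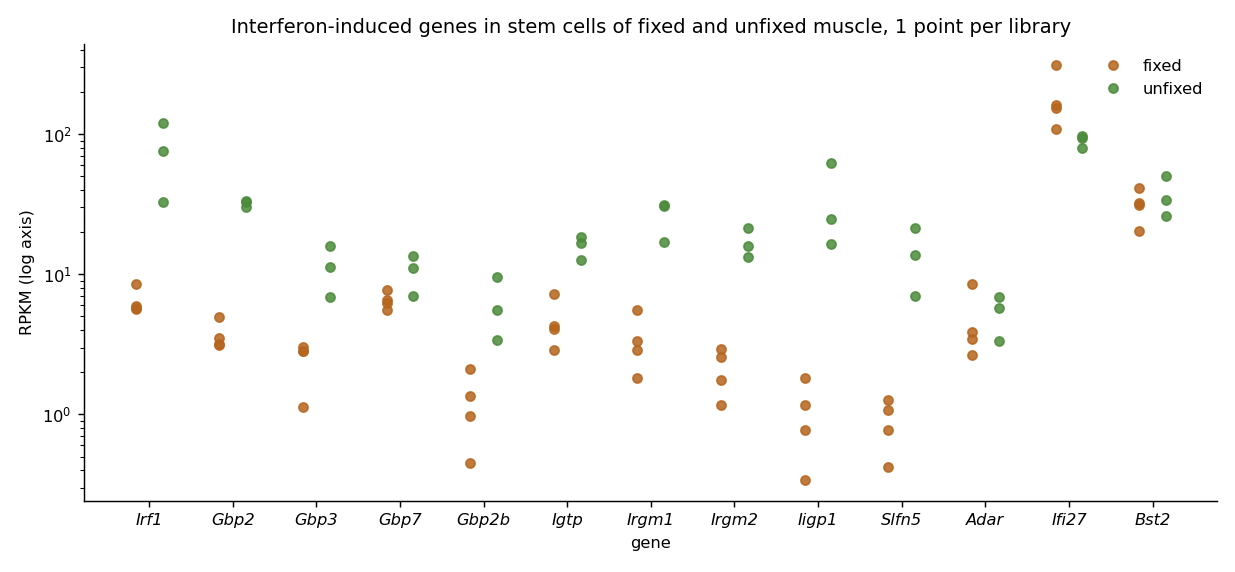
Levels in RPKM on a log axis of 13 interferon-induced genes in fixed (4 libraries) and unfixed (3 libraries) stem cells, with a point for each library. The fixed libraries of Iigp1, Slfn5, Irf1 and Gbp2 lie below all unfixed libraries, whereas those of Ifi27 lie above.

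The fixation result rested in part on single libraries. Replicate 2 was the highest of the 3 unfixed libraries for 32 members and replicate 1 the lowest for 32. Without unfixed replicate 2, 13 members were called, and without unfixed replicate 3, 12, all of them lower. Summed immune markers were 1460 RPKM in fixed replicate 4, 166 to 225 in the other fixed libraries and 45.7 to 346 in unfixed cells. Without fixed replicate 4, 22 members were called, 21 lower and 1 higher. Stem cell markers summed to 554 to 1012 RPKM in fixed and 2415 to 2703 in unfixed cells, and endothelial markers to 7.45 to 20.1 and 52.5 to 184. The part of these markers in the result was not tested.

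Across the 8 group means of the larger table, the genes whose pattern was most like that of Isg15 were Irf7 (Pearson r = 0.955), Oasl1 (0.945), Xaf1 (0.907), Phf11d (0.895) and Wdr54 (0.895), among 14345 genes. Irf7 and Xaf1 are members, and like Isg15 they had their highest group mean in the isolation label, with 20.3 and 7.15 RPKM. The 8 means share libraries and scaling with every other gene, and the correlations are given as a description.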

How the data were processed

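RNA was measured by sequencing in 39 libraries of 10 groups, 9 with 4 libraries and 1 with 3. The authors deposited RPKM values in 2 tables, made with Trim Galore, STAR, featureCounts of Subread and edgeR on the mm10 build, per the submitters' processing notes. The sources used here do not give versions or the strand setting. Libraries were primed with oligo(dT) from 500 pg of RNA, or 1 ng for the fixation table, amplified over 13 to 15 cycles and read as 101 bp pairs, per the labels' protocols. The header of the larger table starts 1 cell to the left of its values, which was corrected. Every column of values was mapped to a sample by its name (0 not used).

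Differences were tested with limma 3.58.1 in R 4.3.3 (empirical Bayes with a trend) on log2(RPKM + 0.5), a scale that understates changes of low genes, with the 2 groups compared in each fit. A gene was tested if at least 3 libraries of the 2 groups had 1 RPKM or more, and p-values were adjusted by Benjamini-Hochberg over all of them and called under 0.05. Multiplied by gene length and a factor for each library, the RPKM values gave whole reads within 0.1 read for 100% of values, which gave the depths and a test with limma-voom as an alternative. That test called 43 of 43 members between 4 d and 1 d and 21 of 43 between fixed and unfixed cells. The scripts were tested on simulated data, and other values were computed with Python 3.11.15, numpy 2.4.6 and pandas 2.3.3.

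The 43 members and the marker and pathway lists were chosen with earlier results of these data known. Any member could be named. The value in every library was given for 23 members chosen as examples of each role, and in each comparison for up to 4 called members with the largest rise or fall whose libraries do not overlap. Alternatives were other pseudocounts (0.1 and 1), no filter, other library scalings, limma-voom, all groups in 1 fit, a replicate block, and each library left out.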

Additional observations from a re-analysis of the deposited data

Results flagged for a closer look

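For 23 members, each group of 4 libraries was examined for a library whose gap to its nearest neighbour took more of the group's range than Dixon's 95% critical value for 4 samples. This held for 13 of 207 groups, and chance gives about 1 in 20. In the 6 h label, replicate 2 was high for Ifit1 (3.28 RPKM, others 2.62 to 2.63) and low for Bst2 (15.9, others 17.6 to 17.9). In the 4 d label, replicate 1 was low for Stat2 (4.06, others 4.68 to 4.74). In isolated cells, replicate 2 was high for Ifih1 (4.02, others 3.71 to 3.76).

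The isolation label gave 4 such groups: replicate 4 was high for Isg15 (72.8 RPKM, others 38.9 to 43.1) and Ifih1 (1.57, others 0.903 to 0.947), replicate 1 for Rsad2 (5.17, others 2.42 to 2.75) and replicate 2 for Igtp (28, others 9.40 to 11.5). With alpha-amanitin, replicate 1 was low for Irf7 (5.91, others 11.7 to 12), Ifit1 (5.63, others 7.13 to 7.38) and Igtp (9.39, others 17.2 to 18.5). With DMSO, replicate 1 was high for Igtp (11.4, others 7.96 to 7.99). Among fixed cells, replicate 4 was high for Irf1 (8.55, others 5.66 to 5.94).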

How the results depend on the processing

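The number of members called stayed within 1.5 times its value under every alternative in 8 of 10 comparisons. Between 4 d and 1 d it was 42, with 34 to 43 under other settings (34 with all groups in 1 fit) and 42 to 43 with each library left out, all of them higher. With libraries left out it was 35 to 38 between 1 d and 6 h, 34 to 37 between 4 d and 6 h, 38 to 39 between 4 d and whole muscle, and 25 to 32 between isolation label and isolated cells. Between alpha-amanitin and DMSO the count of 17 became 28 with library sizes from all reads and 8 to 28 with libraries left out. Between fixed and unfixed cells the count of 21 became 12 to 22 with libraries left out. The cause of these shifts was not tested. All groups in 1 fit was not run for the fixation table, which holds only those 2 groups.

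Deviations of same-numbered libraries correlated at -0.59 (alpha-amanitin against DMSO) to 0.24, in no comparison all over 0.1, so the numbers were not used as pairs. Between 1 d and 6 h, and 4 d and 6 h, 3 of 4 libraries correlated best with their own number. The same held for the 6 h label, the 4 d label and isolated cells, each against whole muscle. A weak pairing is therefore not excluded in these comparisons. With the replicate number as a block, 6 members were called between alpha-amanitin and DMSO (0 higher, 6 lower). Between fixed and unfixed cells, whose 2 shared numbers leave 4 libraries, 10 were called (1 higher, 9 lower). The block left the other counts within 1.5 times.

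Over the 23 example members, 22 of 1778 gene results under other settings changed direction, 72 lost a call and 34 gained one. With a library left out, 0 of 1785 changed direction, 70 lost a call and 14 gained one. Between isolated cells and whole muscle, library sizes from all reads gave log2 differences above 0 for Irf7 (0.59), Isg15 (0.92), Usp18 (0.77), Trim30a (1.29), Ifit1 (1.08), Ifit2 (1.26), Rsad2 (0.97), Bst2 (0.11), Gbp7 (1.42), Irgm1 (1.26) and Iigp1 (0.62), and median-of-ratios factors gave -0.0029 for Oasl2. Between 6 h and whole muscle, median-of-ratios factors gave -0.048 for Irf1, -0.061 for Rsad2 and -0.030 for Tap1, and sizes from all reads 0.13 for Usp18, 0.17 for Ifit2 and 0.30 for Gbp7. With sizes from all reads, 4 d against whole muscle gave 0.044 for Irf1 and 0.013 for Igtp, and Irf1 was at -0.62 between isolation label and isolated cells and -0.50 between alpha-amanitin and DMSO. The cause was not tested. Depth limits the isolation label most, where a member had as few as 2 reads.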
